A study of Oryza sativa with 8 samples.

Results

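Salicylic acid is the defence hormone that plants use mainly against microbes feeding on living cells. The 7 rice loci described here carry its signal: the coactivator gene NPR1 and its relatives NPR2 and NPR3, the transcription factor genes WRKY45 and WRKY13, and the lipase-like genes EDS1 and PAD4. They were chosen by locus identifier from knowledge of the pathway, not by a rule on their levels, but with earlier results of these data known. All 7 were found among the 32166 loci of the deposited table, with 13 of its 38335 transcripts. Each passed the filter on low values, which kept 25325 loci with at least 10 normalized counts in at least 2 of the 8 libraries. The names NPR1, NPR2 and NPR3 matched a reference gene table by chromosome and gene order. WRKY45, WRKY13, EDS1 and PAD4 do not stand in that table under these symbols, so for them the pairing of name and identifier was not checked.

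In the textbook pathway, pathogen recognition by immune receptors passes through the partners EDS1 and PAD4 and raises salicylic acid, as worked out in Arabidopsis. NPR1 then acts with TGA-type bZIP factors as a coactivator of defence genes. In rice the response to salicylic acid and its synthetic analogs runs through separate branches, one that depends on NPR1 and one that depends on WRKY45, which is needed for analog-induced resistance to blast fungus. Rice leaves hold much salicylic acid even without infection, so the response is thought to depend strongly on these signalling components. No pathogen or hormone treatment is given in the labels, and every sample title carries the same tag, CK.

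Flag leaves of rice cultivar ZH11, grown in a growth chamber, were sampled in 3 genotypes. The first, labelled GSK2-RNAi oswrky53 (3 libraries, replicates 1 to 3), joins an RNA interference construct against GSK2 with the oswrky53 genotype. The second, labelled GSK2-RNAi (3 libraries, replicates 1 to 3), is named for the construct alone, and the third is the wild type (2 libraries, replicates 1 and 3). WRKY53 is a transcription factor gene, and the product of GSK2 is a kinase acting as a brake on brassinosteroid signalling. The labels name neither the promoter of the construct, the number of transgenic lines, the lesion in WRKY53 nor the plant age in days. The stage is heading in the sample labels and booting in the series text. Nothing states that replicates were separate plants, so p-values reflect only how far these samples spread, which may be technical.

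Totals per library ran from 25.98 to 27.04 normalized counts (in units of 1e6) for GSK2-RNAi oswrky53, 20.87 to 21.71 for GSK2-RNAi and 27.74 to 28.03 for the wild type. One read was worth about 0.725 to 1.10 normalized counts, and the lowest value of any of the 7 loci was 108.1, so none rested on a handful of reads. GSK2 itself averaged 185.4 ± 32.2 normalized counts in the GSK2-RNAi oswrky53-labelled libraries, 785.3 ± 39.99 in those labelled GSK2-RNAi (SD, n = 3 each) and 101.6 ± 4.25 in the wild type (SD, n = 2). The GSK2 signal was thus on average higher, not lower, under the RNA interference labels, and where its reads come from was not tested. Its log2 fold change against the wild type passed in GSK2-RNAi (2.94, adjusted p = 0.000107 by limma). In GSK2-RNAi oswrky53 it did not pass (0.85, adjusted p = 0.102 by limma). Genotypes are therefore named by label throughout, and no direction below stands for less GSK2. GSK2 also differed by -2.09 log2 units in GSK2-RNAi oswrky53 against GSK2-RNAi (adjusted p = 0.00067 by limma). Differences between these genotypes therefore cannot be assigned to oswrky53 alone. WRKY53, whose name was not checked and whose lesion is not given, averaged 8423 ± 2892, 7933 ± 587 and 3600 ± 554 normalized counts in the same order, so its level does not test the genotype. Leaf markers fitted the labelled tissue: the summed level of RCA, CAB1R and PORB was 709300 to 817800, 391200 to 482400 and 842100 to 926000 normalized counts in the same order of genotypes. Of 7 floral organ markers MADS7 was at 0 in all 8 libraries, MADS8 never passed 1.90 and MADS6 never passed 8.48, whereas MADS16 reached 529.6. Bulk RNA cannot separate fewer cells of a type from less RNA per cell.

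NPR1 (Os01g0194300, chromosome 1), the central salicylic acid coactivator, differed most between genotypes among the 3 NPR genes. It stood at 154.5, 137.3 and 108.1 normalized counts in the GSK2-RNAi oswrky53-labelled libraries, at 468.2, 411.1 and 656.6 in those labelled GSK2-RNAi, and at 200.3 and 116.5 in the wild type. All 3 GSK2-RNAi libraries lay above the other 5, and the remaining genotypes overlapped. NPR1 rose in the GSK2-RNAi-labelled libraries against the wild type, with a 3.23-fold higher mean (512.0 ± 128.4 against 158.4 ± 59.3, SD, n = 3 and 2) and a log2 fold change of 1.71 ± 0.29 (SE, adjusted p = 0.00488 by limma). In the GSK2-RNAi oswrky53-labelled libraries it fell by 1.92 ± 0.26 log2 units against those labelled GSK2-RNAi (SE, adjusted p = 0.00421 by limma), where the mean was 3.84-fold higher. Against the wild type the GSK2-RNAi oswrky53 libraries differed by -0.21 (95% interval -0.88 to 0.46, adjusted p = 0.799 by limma).

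NPR2 (Os01g0767900, chromosome 1) and NPR3 (Os03g0667100, chromosome 3) are paralogs of NPR1, and the Arabidopsis protein called NPR3 binds salicylic acid and restrains defence genes. NPR2 was at 2640, 3315 and 2578 normalized counts in GSK2-RNAi oswrky53, 2732, 2230 and 2891 in GSK2-RNAi, and 3428 and 2978 in the wild type. Its GSK2-RNAi libraries lay just below the wild type ones, by a log2 fold change of -0.30 ± 0.17 that did not pass the threshold (SE, adjusted p = 0.233 by limma). With equal library totals the value was 0.089, but the median of all loci then moved to 0.40. That scaling multiplies each library by 1 factor, so values relative to the median stay nearly the same by construction (-0.31 for NPR2). With quantile normalization NPR2 was at -0.04, or 0.0004 relative to the median. NPR2 in GSK2-RNAi oswrky53 differed by 0.12 ± 0.15 log2 units from GSK2-RNAi and by -0.18 ± 0.17 from the wild type (SE, adjusted p = 0.628 and 0.698 by limma), and its genotypes overlapped in both pairings.

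NPR3 was at 533.2, 447.2 and 415.4 in GSK2-RNAi oswrky53, 777.4, 833.6 and 1339 in GSK2-RNAi, and 1666 and 522.3 in the wild type. The wild type libraries bracketed all 3 of GSK2-RNAi, and every GSK2-RNAi oswrky53 library lay below every GSK2-RNAi library. That second difference, -1.04 ± 0.39 log2 units, did not pass over all loci (SE, adjusted p = 0.107 by limma). It did pass with only these genotypes in the fit (adjusted p = 0.0198), without wild type replicate 1 or 3 (adjusted p = 0.0197 and 0.0194) and with equal library totals (adjusted p = 0.0318), where NPR3 relative to the median of all loci was again at -1.04. NPR3 in GSK2-RNAi against the wild type was at 0.03 ± 0.44 (SE, adjusted p = 0.969 by limma), with an interval of -0.97 to 1.04, and its sign turned without wild type replicate 3 (-0.80) or GSK2-RNAi replicate 3 (-0.21). In GSK2-RNAi oswrky53 NPR3 was at -1.01 ± 0.44 against the wild type (SE, adjusted p = 0.382 by limma), with 1 wild type library far above and 1 within that genotype's range.

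**Figure D1:**
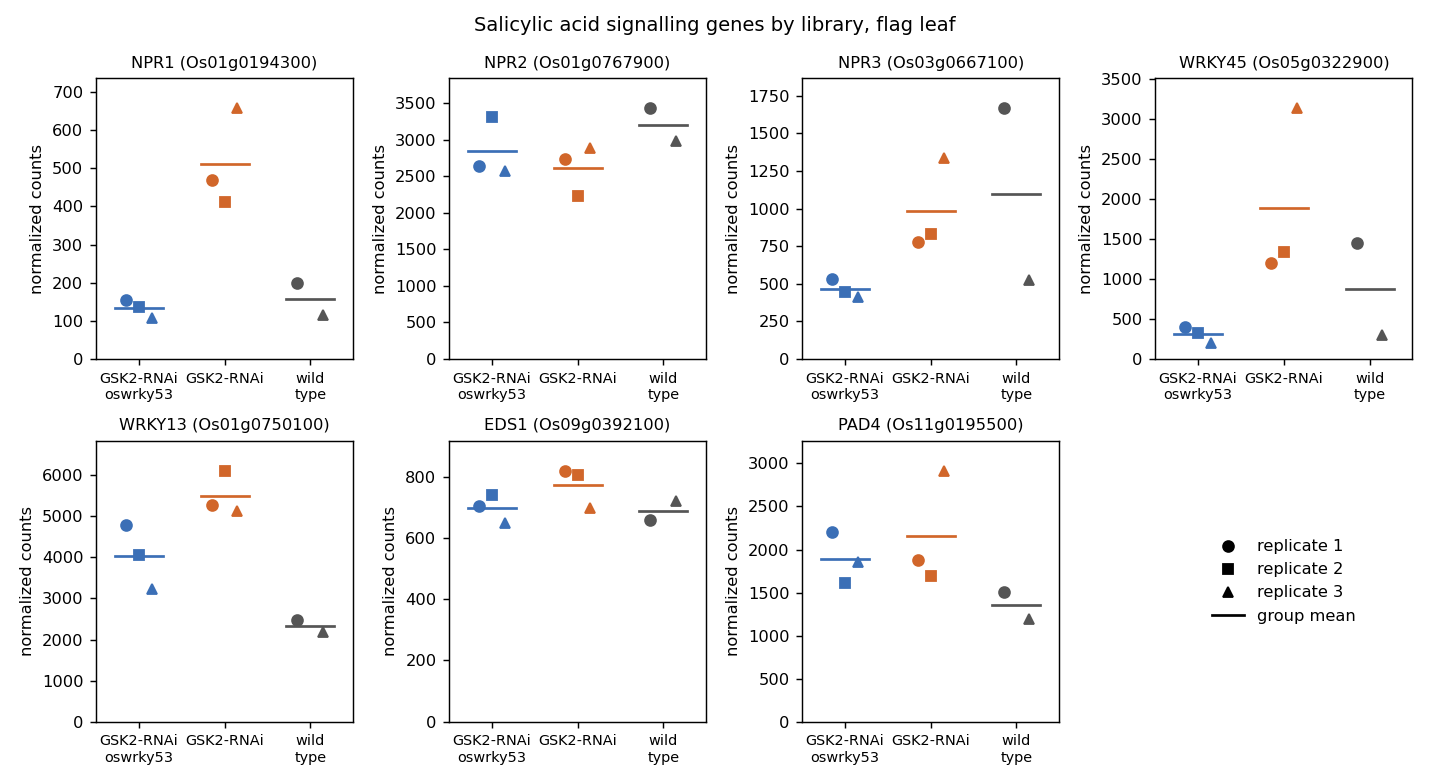
Normalized counts of the 7 salicylic acid signalling loci in each of the 8 libraries, 1 panel per locus on its own linear axis from 0, with genotypes in the order GSK2-RNAi oswrky53, GSK2-RNAi and wild type; points are libraries (the shape gives the replicate number) and lines are group means. The 3 GSK2-RNAi points of NPR1 (411.1 to 656.6) stand clear of the other 5, whereas the wild type points of NPR3 and WRKY45 lie far apart.

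WRKY45 (Os05g0322900, chromosome 5), the transcription factor gene of the NPR1-independent branch in rice, had the widest range of the 7 loci as a ratio of highest to lowest library. It was at 396.0, 327.1 and 202.9 normalized counts in the GSK2-RNAi oswrky53-labelled libraries, at 1195, 1341 and 3126 in those labelled GSK2-RNAi, and at 1454 and 297.3 in the wild type. Every GSK2-RNAi oswrky53 library lay below every GSK2-RNAi library, while the wild type replicates fell on opposite sides of that gap. WRKY45 fell by 2.52 ± 0.59 log2 units in the GSK2-RNAi oswrky53-labelled libraries against GSK2-RNAi (SE, adjusted p = 0.0244 by limma), with means of 308.7 ± 97.9 against 1887 ± 1075 (SD, n = 3 each). It no longer passed with replicate 2 or replicate 3 of GSK2-RNAi left out (adjusted p = 0.0653 and 0.0769), or with replicate 2 or replicate 3 of GSK2-RNAi oswrky53 left out (adjusted p = 0.0533 and 0.0793). The log2 fold change with single libraries left out ran from -2.78 to -2.09.

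Against the wild type WRKY45 was 2.15-fold higher on average in the GSK2-RNAi-labelled libraries, a log2 fold change of 1.38 ± 0.66 that did not pass (SE, adjusted p = 0.163 by limma). The value turned on which wild type library entered: without replicate 1 the log2 fold change was 2.52 and passed (adjusted p = 0.0263), and without wild type replicate 3 it was 0.23 (adjusted p = 0.811). In GSK2-RNAi oswrky53 against the wild type WRKY45 was at -1.14 (95% interval -2.65 to 0.36, adjusted p = 0.507 by limma), and at 0.0006 without wild type replicate 1.

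WRKY13 (Os01g0750100, chromosome 1) encodes a transcription factor that in rice is tied to activation of salicylic acid dependent and suppression of jasmonate dependent defence. It was at 4795, 4045 and 3236 normalized counts in GSK2-RNAi oswrky53, 5276, 6096 and 5125 in GSK2-RNAi, and 2480 and 2176 in the wild type. The 3 genotypes did not overlap: GSK2-RNAi was highest, GSK2-RNAi oswrky53 intermediate and the wild type lowest. WRKY13 rose in the GSK2-RNAi-labelled libraries by 1.24 ± 0.18 log2 units against the wild type (SE, adjusted p = 0.00269 by limma), with means of 5499 ± 522 against 2328 ± 215 (SD, n = 3 and 2), a ratio of 2.36.

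Unlike the values of NPR1, those of WRKY13 in GSK2-RNAi oswrky53 stayed above both wild type libraries, with a 1.73-fold higher mean. That difference, 0.77 ± 0.18 log2 units, missed the threshold over all loci (SE, adjusted p = 0.153 by limma). Against GSK2-RNAi the GSK2-RNAi oswrky53 libraries differed by -0.46 ± 0.16 for WRKY13 (SE, adjusted p = 0.0867 by limma). This smaller difference passed with equal totals (-0.78, adjusted p = 0.0107 by limma). That scaling moved the median of all loci to -0.32 and by construction left WRKY13 at -0.46 relative to it. The difference also passed with quantile normalization (-0.79, adjusted p = 0.0150) and without GSK2-RNAi oswrky53 replicate 1 (adjusted p = 0.0396).

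EDS1 (Os09g0392100, chromosome 9), whose Arabidopsis counterpart relays signals from immune receptors, varied least across the libraries. It was at 702.4, 740.7 and 649.5 normalized counts in GSK2-RNAi oswrky53, 817.4, 804.3 and 696.6 in GSK2-RNAi, and 658.6 and 718.7 in the wild type. The genotypes overlapped in every pairing. The log2 fold change was 0.16 ± 0.13 in GSK2-RNAi against the wild type (SE, adjusted p = 0.382 by limma) and -0.15 ± 0.11 in GSK2-RNAi oswrky53 against GSK2-RNAi (SE, adjusted p = 0.414 by limma), with intervals of -0.13 to 0.45 and -0.41 to 0.11. EDS1 in GSK2-RNAi oswrky53 was at 0.02 against the wild type (95% interval -0.27 to 0.31, adjusted p = 0.967 by limma).

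PAD4 (Os11g0195500, chromosome 11), the partner of EDS1, was at 2206, 1614 and 1851 normalized counts in GSK2-RNAi oswrky53, 1876, 1692 and 2910 in GSK2-RNAi, and 1512 and 1194 in the wild type. Both transgenic genotypes lay above the wild type in every library and overlapped each other. In GSK2-RNAi against the wild type the log2 fold change of PAD4 was 0.64 ± 0.24 (SE, adjusted p = 0.0900 by limma), and in GSK2-RNAi oswrky53 against the wild type 0.48 ± 0.24 (SE, adjusted p = 0.454 by limma). Neither passed. GSK2-RNAi replicate 3 alone was at 2910, and the difference between the transgenic genotypes, -0.16 ± 0.22 (SE, adjusted p = 0.653 by limma), changed sign without it (0.07).

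With libraries scaled to equal totals, EDS1 passed in GSK2-RNAi against the wild type (0.55, adjusted p = 0.0121) and in GSK2-RNAi oswrky53 against GSK2-RNAi (-0.46, adjusted p = 0.0211), and PAD4 in GSK2-RNAi against the wild type (1.03, adjusted p = 0.0112). That scaling moved the median of all loci to 0.40 and -0.32 in these comparisons. Relative to the median EDS1 was at 0.15 and -0.14 and PAD4 at 0.63, by construction as with the deposited values. With quantile normalization PAD4 also passed in GSK2-RNAi against the wild type (0.80, adjusted p = 0.0462).

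**Figure D2:**
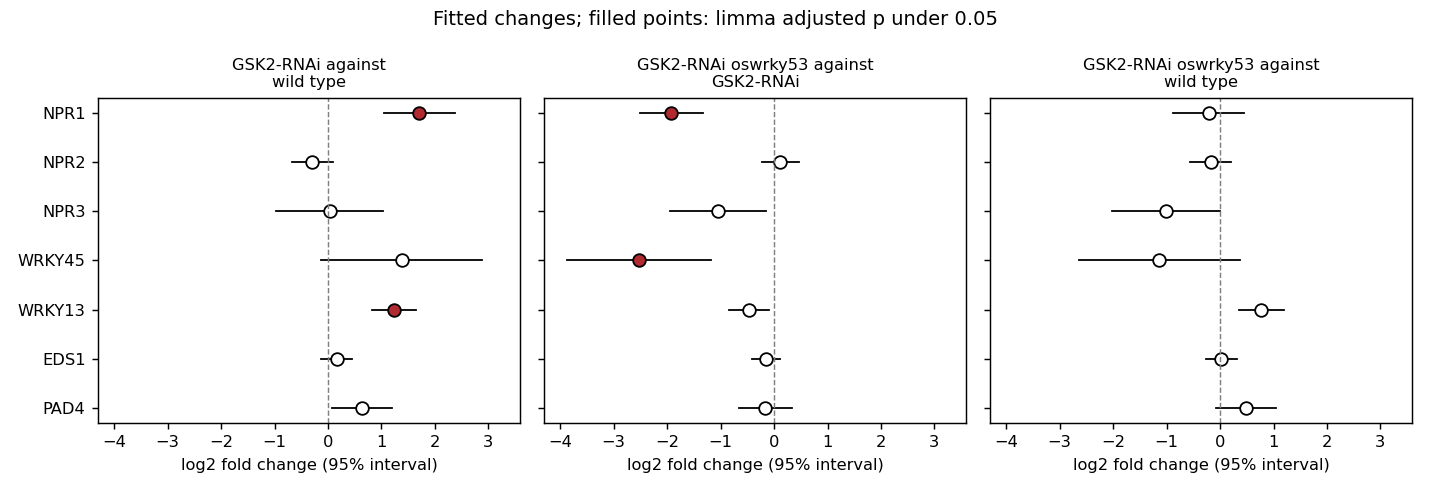
Log2 fold changes of the 7 loci in the 3 comparisons, from limma on log2(normalized counts + 1); points are estimates, bars are 95% intervals and filled points passed an adjusted p of 0.05. NPR1 and WRKY13 passed in GSK2-RNAi against the wild type, NPR1 and WRKY45 in GSK2-RNAi oswrky53 against GSK2-RNAi, and none in GSK2-RNAi oswrky53 against the wild type.

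Counted together, 2 of the 7 loci rose and 0 fell in the GSK2-RNAi-labelled libraries against the wild type, where 24.8% of the 25325 loci tested were called, 13.3% upward and 11.6% downward. In GSK2-RNAi oswrky53 against GSK2-RNAi 0 rose and 2 fell, where 16.5% of all loci were called, 8.78% upward and 7.70% downward. A count of 2 in 7 lies near the first of these shares and above the second, and with so few loci neither count sets the pathway apart from other genes. In GSK2-RNAi oswrky53 against the wild type 0 of 7 were called, where 0.336% of all loci were, 0.308% upward and 0.0276% downward (85 by limma, and 3283 at an unadjusted p under 0.05). Of the 7, NPR3 and WRKY13 had an unadjusted p under 0.05 in that comparison (0.0488 and 0.00243). The median log2 fold change of the 7 loci was 0.64, -0.46 and -0.18 in the 3 comparisons, against 0.02, -0.01 and 0.02 over all loci. The first pair of comparisons shares the GSK2-RNAi libraries, so a rise in one and a fall in the other are not independent.

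Groups did not overlap for 4 of the 7 loci in GSK2-RNAi against the wild type (3 above, 1 below), where 55.3% of all loci did not overlap, 29.1% above and 26.2% below. The same held for 4 of 7, all below, in GSK2-RNAi oswrky53 against GSK2-RNAi (39.2% of all loci, 20.0% above and 19.1% below), and for 2 of 7, both above, in GSK2-RNAi oswrky53 against the wild type (27.3% of all loci, 15.7% above and 11.6% below). The share of 4 in 7 is near the background in the first comparison and above it in the second, where NPR1, NPR3, WRKY45 and WRKY13 were the loci concerned. With so few loci neither share sets the pathway apart from other genes.

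The spread within genotypes differed strongly between the loci. WRKY45 in wild type replicate 1 was 4.89 times its value in replicate 3, a ratio that 0.409% of 19081 loci reached or passed. For NPR3 the ratio was 3.19, reached by 1.03%, and for NPR1 it was 1.72. PAD4, NPR2, WRKY13 and EDS1 lay between 0.916 and 1.27.

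A second library stood out for WRKY45, NPR3 and NPR1, and here for PAD4 as well. In GSK2-RNAi replicate 3 WRKY45 was 2.47 times the mean of replicates 1 and 2, which 0.435% of loci reached, and NPR3, PAD4 and NPR1 were 1.66, 1.63 and 1.49 times that mean. NPR2, WRKY13 and EDS1 lay between 0.859 and 1.17 there. GSK2-RNAi oswrky53 replicate 3 had the lowest value of its genotype for all loci but PAD4. WRKY45 in that library was 0.561 times the mean of replicates 1 and 2, and 2.725% of loci were as low. The pairs of libraries in these ratios were set by hand, outside the plan, and include those where WRKY45 was highest. The shares of loci therefore do not measure how rare such ratios are. Calls that changed when single libraries were left out were those of WRKY45, of NPR3 and, in GSK2-RNAi oswrky53 against GSK2-RNAi, of WRKY13.

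Some markers of leaf senescence differed between genotypes too. Of 4 such genes, SGR and RCCR1, both of chlorophyll breakdown, rose in GSK2-RNAi against the wild type (adjusted p = 0.0150 and 0.000821 by limma). Both fell in GSK2-RNAi oswrky53 against GSK2-RNAi (adjusted p = 0.0231 and 0.00182 by limma). NYC1 and NOL did not pass in either comparison. Of all loci 24.8% and 16.5% were called in these comparisons, so 2 of 4 does not set the markers apart. The SGR rise no longer passed without wild type replicate 3 or GSK2-RNAi replicate 2 (adjusted p = 0.0874 and 0.0519), and its fall without any one of the GSK2-RNAi replicates or GSK2-RNAi oswrky53 replicate 2 (adjusted p up to 0.0896), whereas both RCCR1 calls held without each of the 8 libraries. With the replicate block the SGR rise also missed the threshold (adjusted p = 0.0506 by limma). The summed level of the 4 markers was 3913 to 5317 normalized counts in GSK2-RNAi oswrky53, 6876 to 13260 in GSK2-RNAi and 2398 to 5847 in the wild type. In the wild type SGR, NYC1, RCCR1 and NOL in replicate 1 were 5.16, 3.15, 1.81 and 0.757 times their values in replicate 3, so that all but NOL were higher in replicate 1, as WRKY45 was. In GSK2-RNAi replicate 3, where WRKY45 was highest, the same genes were 0.561, 0.793, 0.496 and 0.506 times the mean of the other replicates. The floral organ gene MADS3, at 2.09 to 3.30 in GSK2-RNAi oswrky53, 16.2 to 51.9 in GSK2-RNAi and 5.69 to 8.68 in the wild type, also fell in GSK2-RNAi oswrky53 against GSK2-RNAi (adjusted p = 0.0120 by limma). The summed level of all 7 floral markers was 137.6 to 553.7, 338.0 to 424.1 and 204.8 to 365.9 in the order GSK2-RNAi oswrky53, GSK2-RNAi and wild type, and that of the leaf markers, given above, was lowest in GSK2-RNAi. The 100 most abundant loci held 28.5% to 31.7%, 21.3% to 22.6% and 29.7% to 31.7% of the total in the same order. The part of these markers and shares in the results of the 7 loci was not tested.

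**Figure D3:**
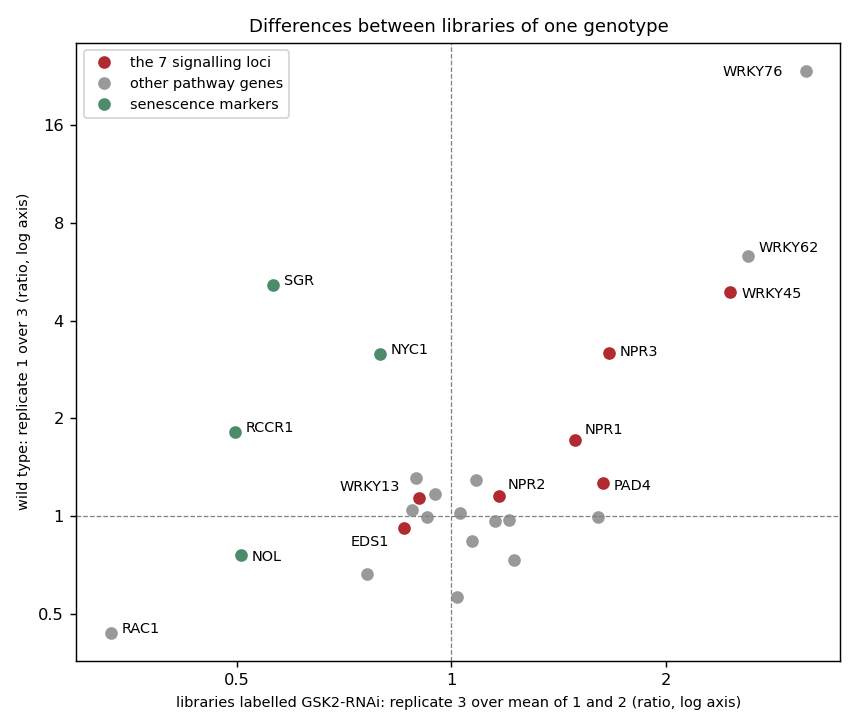
Ratio of GSK2-RNAi replicate 3 to the mean of its replicates 1 and 2 (horizontal log axis) and of wild type replicate 1 to replicate 3 (vertical log axis), for the 7 loci and named genes of the pathway and of leaf senescence. WRKY45, with ratios of 2.47 and 4.89, lies with WRKY62 and WRKY76 at high values on both axes, whereas EDS1 and WRKY13 lie near 1 on both.

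The table gives 3 transcripts each for NPR3, WRKY45 and WRKY13 and 1 for the other 4 loci. Transcript 1 of WRKY45 held 75.2% ± 5.43 of the locus sum in GSK2-RNAi oswrky53, 72.1% ± 2.25 in GSK2-RNAi (SD, n = 3 each) and 75.1% ± 3.13 in the wild type (SD, n = 2). Over the 8 libraries its transcripts 1, 2 and 3 held 69.1% to 79.6%, 14.7% to 24.7% and 2.97% to 8.49%, while the locus sum ran from 202.9 to 3126 normalized counts. Transcript 1 of NPR3 held 88.7% ± 3.13, 87.9% ± 1.48 and 81.2% ± 1.91 in the same order of genotypes, and both wild type libraries lay below all 6 others.

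WRKY13 was carried mainly by its transcript 3, with 54.2% ± 5.28 in GSK2-RNAi oswrky53, 56.7% ± 2.42 in GSK2-RNAi and 55.1% in both wild type libraries. The shares of transcript 3 overlapped between genotypes. Transcript 1 held 26.1% and 24.3% in the wild type, 22.4% to 24.4% in GSK2-RNAi and 18.4% to 24.1% in GSK2-RNAi oswrky53. The wild type overlapped GSK2-RNAi and lay only just above GSK2-RNAi oswrky53 (24.26% against 24.07% at the closest). No test was run on shares, and how often shares separate genotypes in this way over all loci was not counted. Transcripts of 1 locus overlap in sequence, so the division of reads between them is an estimate.

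**Figure D4:**
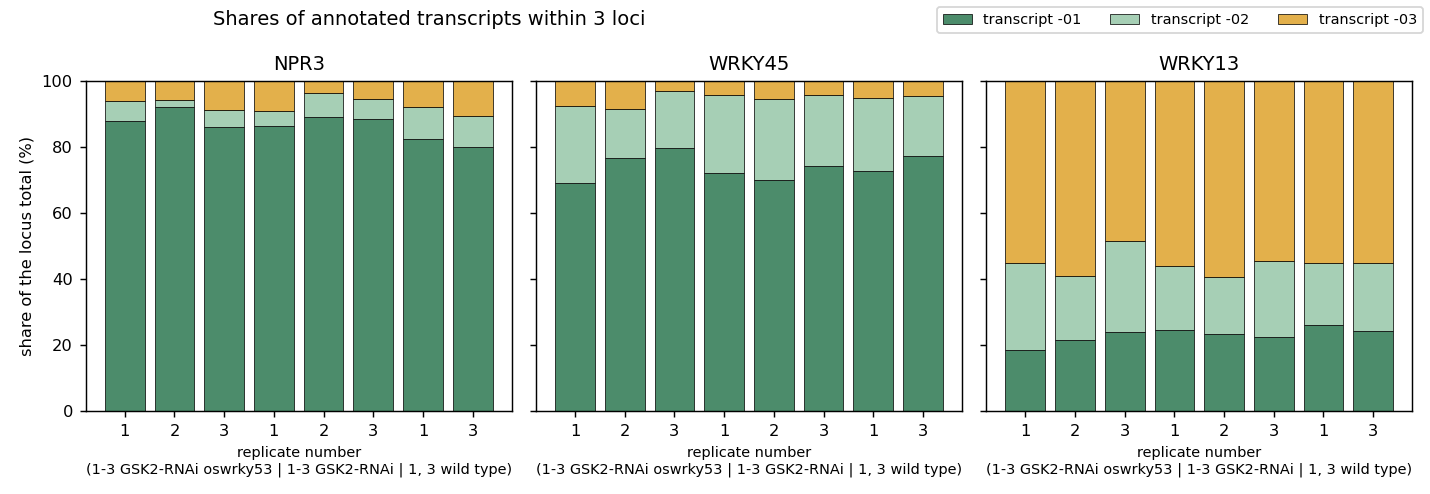
Share of each annotated transcript in the locus sum, in percent, for NPR3, WRKY45 and WRKY13 in each library, with genotypes in the order GSK2-RNAi oswrky53, GSK2-RNAi and wild type. The leading transcript is the same in all 8 libraries at each locus: transcript 1 for NPR3 and WRKY45 and transcript 3 for WRKY13.

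Around the 7 loci, 41 other genes of the pathway were listed, of which 18 had a name that matched the reference table and 16 passed the filter on low values. Of these 16, 4 rose and 4 fell in GSK2-RNAi against the wild type, 3 rose and 4 fell in GSK2-RNAi oswrky53 against GSK2-RNAi, and 0 passed in GSK2-RNAi oswrky53 against the wild type. The shares called over all loci in these comparisons were the 24.8%, 16.5% and 0.336% given above, and they apply to the counts per list below as well. With so few genes per list those counts do not set a list apart. Median log2 fold changes of the 16 were 0.34, -0.22 and -0.14, against 0.02, -0.01 and 0.02 over all loci. With equal library totals 8 rose and 3 fell in the first comparison, and 2 rose and 8 fell in the second. That scaling shifted all loci alike: of 25481 tested, 8051 rose and 1464 fell in the first, and 1145 rose and 6193 fell in the second. Without wild type replicate 1 the first comparison had 1 rise and 3 falls, and without GSK2-RNAi replicate 3 the second had 1 rise and 4 falls.

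In salicylic acid synthesis 1 of 14 listed genes could be used, ICS (Os09g0361500), which encodes isochorismate synthase, an enzyme of salicylic acid synthesis in Arabidopsis. ICS was at 531.4, 777.7 and 707.3 normalized counts in GSK2-RNAi oswrky53, 344.9, 294.6 and 342.0 in GSK2-RNAi, and 950.3 and 1132 in the wild type, with no overlap between genotypes. Against the wild type it fell by 1.67 log2 units in GSK2-RNAi (SE 0.18, adjusted p = 0.00110 by limma), and was 2.05-fold higher in GSK2-RNAi oswrky53 than in GSK2-RNAi (log2 fold change 1.02 ± 0.16, SE, adjusted p = 0.00690 by limma). The direction of ICS in each of these comparisons was opposite to that of NPR1. ICS in GSK2-RNAi oswrky53 was at -0.64 against the wild type (adjusted p = 0.218 by limma).

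Among relatives and partners of NPR1, 1 of 4 tested genes passed in each of those comparisons. TGA2.2 (Os03g0318600), a bZIP factor that binds NPR1, was at 1084, 1005 and 1040 in GSK2-RNAi oswrky53, 1598, 1713 and 1570 in GSK2-RNAi, and 1106 and 947.8 in the wild type. All 3 GSK2-RNAi libraries lay above the other 5, as for NPR1. TGA2.2 rose in GSK2-RNAi against the wild type by 0.67 ± 0.12 log2 units (SE, adjusted p = 0.00527 by limma) and in GSK2-RNAi oswrky53 fell by 0.64 ± 0.10 against GSK2-RNAi (SE, adjusted p = 0.00721 by limma). TGA2.1, bZIP08 and the NPR1 paralog NH4 did not pass in any comparison.

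In the WRKY45 list 1 of 4 tested genes rose in GSK2-RNAi against the wild type, and 2 of 4 fell in GSK2-RNAi oswrky53 against GSK2-RNAi. The genes that fell, WRKY62 (Os09g0417800) and WRKY76 (Os09g0417600), are neighbours on chromosome 9 and encode repressors of defence in rice. WRKY62 was at 0, 3.28 and 0 normalized counts in GSK2-RNAi oswrky53, 68.1, 156.6 and 293.4 in GSK2-RNAi, and 78.1 and 12.4 in the wild type (adjusted p = 0.00402 by limma for GSK2-RNAi oswrky53 against GSK2-RNAi).

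WRKY76 was at 3.30, 4.41 and 1.04 in GSK2-RNAi oswrky53, 281.2, 705.2 and 1551 in GSK2-RNAi, and 2124 and 90.2 in the wild type (adjusted p = 0.00512 by limma for the same comparison). No fold of GSK2-RNAi oswrky53 is printed for these genes, since fitted values, as plotted, depend on the added 1 where levels are near 0. WRKY76 in GSK2-RNAi oswrky53 against the wild type was at an adjusted p of 0.0718, which passed without wild type replicate 3 (adjusted p = 0.0100). Both genes were near 0 in all 3 GSK2-RNAi oswrky53 libraries. They were highest within their genotype in GSK2-RNAi replicate 3 and in wild type replicate 1, the libraries in which WRKY45 was highest as well. NAC4 (Os01g0816100), a factor gene of hypersensitive cell death in rice, rose in GSK2-RNAi against the wild type by 1.41 ± 0.39 log2 units (SE, adjusted p = 0.0307 by limma), a call lost without each of the 5 libraries of these genotypes in turn (adjusted p up to 0.161) and with quantile normalization (adjusted p = 0.0549). The NAC4 call was lost with the replicate block as well (adjusted p = 0.0978 by limma). SIPK (Os06g0154500), a kinase gene whose product phosphorylates WRKY45, did not pass in any comparison and lay between 813.7 and 1055 in all 8 libraries.

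In the list around EDS1, PAD4 and resistance proteins, 2 of 6 genes rose and 3 fell in GSK2-RNAi against the wild type. SGT1 (Os01g0624500), a co-chaperone of immune receptors, rose by 0.52 (adjusted p = 0.0243 by limma) and SPL11 (Os12g0570000), a ubiquitin ligase gene whose loss gives spotted leaves, by 0.36 (adjusted p = 0.0456 by limma). SSI2 (Os01g0919900), a fatty acid desaturase gene whose loss raises salicylic acid defences, fell by 1.43 (adjusted p = 0.00370 by limma), with values of 1911, 1621 and 2031 in GSK2-RNAi against 4900 and 5080 in the wild type. LSD1 (Os08g0159500), a zinc finger gene whose Arabidopsis counterpart restrains cell death, fell by 0.81 (adjusted p = 0.0459 by limma). RAC1 (Os01g0229400), a small GTPase gene of rice immunity, fell by 2.84 (adjusted p = 0.0176 by limma). Of these calls that of SSI2 held without each of the 8 libraries. RAC1 no longer passed without wild type replicate 3 (0.105), SGT1 without 4 single libraries (adjusted p up to 0.0983), LSD1 without 6 (up to 0.222) and SPL11 without 7 (up to 0.143). LSD1 was at -0.43 with equal totals (adjusted p = 0.193) and at -0.37 with quantile normalization (adjusted p = 0.352). The SGT1 rise was lost without the intensity trend (adjusted p = 0.0518 by limma). That of SPL11 was lost with the replicate block (adjusted p = 0.128 by limma) and in other settings too.

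Of those 6 genes 2 rose and 1 fell in GSK2-RNAi oswrky53 against GSK2-RNAi. SSI2 rose by 0.73 (adjusted p = 0.0433 by limma) and RAC1 by 2.63 (adjusted p = 0.0224 by limma), whereas SGT1 fell by 0.65 (adjusted p = 0.0113 by limma). The SGT1 fall held without each of the 8 libraries, the RAC1 rise was lost without 4 single libraries (adjusted p up to 0.0713) and the SSI2 rise without 7 (up to 0.149). SSI2 was at 0.42 with equal totals (adjusted p = 0.148) and at 0.58 with quantile normalization (adjusted p = 0.0853). RAR1, which works with SGT1, did not pass in any comparison. Of the response genes 1 of 6 could be used, PBZ1 (Os12g0555500), which encodes a pathogenesis-related protein. PBZ1 was at 1122, 1371 and 1416 in GSK2-RNAi oswrky53, 1705, 1368 and 1564 in GSK2-RNAi, and 787.3 and 1396 in the wild type. Its genotypes overlapped in every pairing and no comparison passed.

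**Figure D5:**
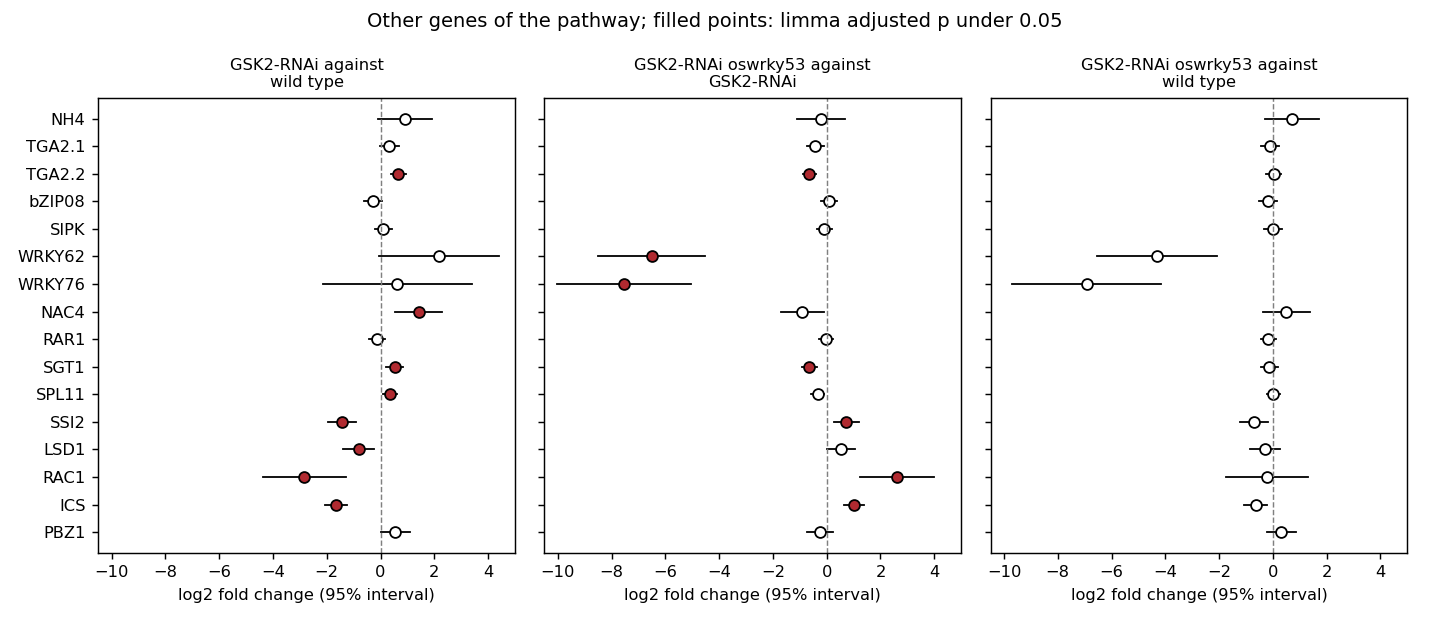
Log2 fold changes of the 16 tested pathway genes with a checked name in the 3 comparisons, in the order of the lists; points are limma estimates, bars are 95% intervals and filled points passed an adjusted p of 0.05. ICS and SSI2 were lower in GSK2-RNAi than in the wild type, and TGA2.2 and SGT1 were higher. The estimates of WRKY62 and WRKY76 that involve GSK2-RNAi oswrky53 depend on the added 1, since both genes were near 0 there.

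As a description of pattern, log2 levels were correlated across the 8 libraries with those of 83 loci outside the 7 that had a checked name and a mean of at least 50. These 83 came from the hand-written lists and markers, which include the NPR1 partners and the WRKY45 list, so the ranking depends on which genes were listed. The 7 loci were not ranked among them. Of the 83, NPR1 was most like SPL11 (Pearson r = 0.945), TGA2.2 (0.945) and 4CL3 (0.923), the last a ligase gene of the lignin pathway. WRKY45 was most like WRKY62 (0.911), WRKY76 (0.891) and TGA2.2 (0.795) of the 83. The values for WRKY62 and WRKY76 depend on the added 1, since both genes were near 0 in GSK2-RNAi oswrky53. Among the 7 loci WRKY45 was at 0.915 with NPR1 and 0.906 with NPR3, and lowest with NPR2 (-0.01), and EDS1 was at 0.503 with NPR1. The 8 libraries are replicates of different genotypes and also differ in depth and in total, so these values carry no p. The correlations do not separate differences between genotypes from those between single libraries.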

How the data were processed

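Flag leaf RNA of 8 libraries was prepared with a TruSeq RNA kit, per the labels. The values used are those the authors deposited: 1 signal per transcript and library, called normalized counts here after the table's own naming. Per the submitters' processing notes the tools were DESeq2 1.26.0 and kallisto 0.46.1, with build IRGSP-1.0. The sources used here do not give their roles, the annotation or how values were normalized. Values were not whole reads, so no count model was run, and no coordinates are given because the reference table used for names (ASM3414082v1) is another build.

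Transcripts were summed per locus. Loci reaching 10 in 2 or more libraries were kept, and log2(value + 1) was fitted in limma 3.58.1 (R 4.3.3) with an intensity trend, as contrasts of 3 group means over all 8 libraries, two-sided, with Benjamini-Hochberg adjustment over all 25325 loci and a threshold of 0.05. Fold changes of low loci are understated on this scale. Folds are ratios of group means, and intervals are 95% intervals of the fit. The fit was tested on simulated data. Tables and figures used Python 3.11.15 (matplotlib 3.10.9, scipy 1.17.1, pandas 2.3.3, numpy 2.4.6). Intervals are not counting error, and levels of different loci were not compared, because lengths were not used.

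Of 145 locus and symbol pairs written by hand for all lists and markers, 104 lay on the same chromosome and within 5% of gene order in the reference table; 39 symbols were not in it. The check cannot tell neighbouring relatives apart. Named genes were the 7 loci, up to 4 called members of each list with any counted call, and the 3 checked loci outside the 7 most like NPR1 and most like WRKY45. The members and lists were chosen with earlier results of these data known. Alternatives covered pseudocount, filters, scaling, trend, the samples in the fit, a block for replicate number and each library left out. No pairing of the samples by replicate number was seen.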

Additional observations from a re-analysis of the deposited data

How the results depend on the processing

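Over 17 alternatives, 21 results (7 loci in 3 comparisons) gave 329 values with the same direction and side of the threshold, 12 that newly passed, 5 that were lost and 11 that changed sign. The rise of NPR1 (1.32 to 2.098, adjusted p from 0.00134 to 0.0271) and of WRKY13 (1.14 to 1.62, adjusted p from 0.000620 to 0.0173) in GSK2-RNAi against the wild type and the fall of NPR1 in GSK2-RNAi oswrky53 against GSK2-RNAi (-2.23 to -1.73, adjusted p from 0.00142 to 0.0177) held in all 17. All sign changes were in values that passed in neither setting. In GSK2-RNAi against the wild type they were NPR2 with equal totals (0.089), NPR3 without wild type replicate 3 (-0.80) or GSK2-RNAi replicate 3 (-0.21) and, beside the 7 loci, WRKY76 without wild type replicate 3 (-1.65). In GSK2-RNAi oswrky53 against GSK2-RNAi they were NPR2 with equal totals (-0.20) and quantile normalization (-0.078) and PAD4 without GSK2-RNAi replicate 3 (0.073). In GSK2-RNAi oswrky53 against the wild type they were NPR1 (0.18) and WRKY45 (0.00058) without wild type replicate 1, and EDS1 without wild type replicate 1 (-0.045), without GSK2-RNAi oswrky53 replicate 2 (-0.027) and with the replicate block (-0.020). With single libraries left out, the full ranges of these values were -0.80 to 0.87 for NPR3 and -1.65 to 2.89 for WRKY76 in GSK2-RNAi against the wild type, -0.32 to 0.073 for PAD4 in GSK2-RNAi oswrky53 against GSK2-RNAi, and -0.60 to 0.18 for NPR1, -2.29 to 0.00058 for WRKY45 and -0.045 to 0.081 for EDS1 in GSK2-RNAi oswrky53 against the wild type. The equal-totals signs of NPR2 come from the shift of all loci by that scaling (medians 0.40 and -0.32). Relative to the median NPR2 was at -0.31 and 0.13, by construction as with the deposited values. With quantile normalization NPR2 relative to the median was at 0.0004 and -0.076 in the same comparisons. For the other sign changes the cause was not tested.

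With equal totals 9515 loci were called in GSK2-RNAi against the wild type (8051 higher, 1464 lower, against 3364 and 2926 of 6290 as deposited) and 7338 in GSK2-RNAi oswrky53 against GSK2-RNAi (1145 higher, 6193 lower, against 2223 and 1949 of 4172), with 4 and 5 of the 7 loci called in place of 2 and 2. Against the wild type, GSK2-RNAi oswrky53 had 49 called loci in place of 85 when only these genotypes entered the fit. With single libraries left out the 3 comparisons had 3670 to 6911, 1575 to 4354 and 53 to 64 called loci, and 2 to 3, 1 to 3 and 0 of the 7; a lone wild type sample is then assumed to vary like the other groups.

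No pairing by replicate number was seen. Correlations ran from -0.211 to 0.149 for same-numbered libraries and from -0.325 to 0.325 for differently numbered ones. Deviations of the 2 wild type libraries from their mean mirror each other by construction, so the check cannot exclude pairing. With the replicate block 3894, 2621 and 32 loci were called, and 1 of the 7 in GSK2-RNAi oswrky53 against GSK2-RNAi, where WRKY45 was at an adjusted p of 0.0563.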

Other observations

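NH5.1 (Os11g0141900) and NH5.2 (Os12g0138500), 2 further NPR1 relatives, did not pass the filter on low values. They stood at 127.5 and 165.3 normalized counts in GSK2-RNAi oswrky53 replicate 3 and at no more than 3.17 and 6.36 in the other 7 libraries. In the same library 11 loci were at 100 or more while below 10 in each of the other 7, and every other library had at most 1 such locus. Whether the authors' counting shared reads between NH5.1 and NH5.2, which are close relatives, was not tested.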
